A study of Mus musculus with 6 samples.

Results

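The genes of phenylalanine and tyrosine breakdown were compared between the livers of 4 Pcyt2+/- mice and 2 wild type mice, all of 2 months of age and of C57BL6 background. The set named 7 genes (Pcbd1, Qdpr, Tat, Hpd, Hgd, Gstz1 and Fah). Each was represented by a probe set whose annotation held that gene's symbol alone, and where several existed the row would have been chosen by the highest mean log2 value over the 6 arrays. Each gene with such a row had exactly 1, so no choice by level was made, and 6 of the 7 members were measured among 18820 genes in all. Gstz1 was the exception, because its probe set also carried the symbol of another gene, and no value is given for it. The titles of the Pcyt2+/- samples call the animals knock-outs, whereas the genotype field shows 1 altered copy, and the genotype is used here. The sources used here did not give the sex of the mice, their feeding state, or the time of day of collection. The values are log2 expression as deposited, so that 1 unit is a doubling of signal. Differences are Pcyt2+/- minus wild type and were tested with limma, with p-values adjusted over all 18820 genes.

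Phenylalanine is turned into tyrosine in the liver in a step that consumes tetrahydrobiopterin. Pcbd1 and Qdpr encode the dehydratase and the reductase that restore this cofactor after each turn. Tat then opens tyrosine breakdown by removing the amino group, Hpd makes homogentisate, Hgd opens its ring, Gstz1 isomerises the product, and Fah splits it into fumarate and acetoacetate. Tat is a textbook gene of the fasting and glucocorticoid response of the hepatocyte, and loss of Tat, Hpd, Hgd or Fah underlies inherited disorders with raised tyrosine or homogentisate.

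The stretches upstream of the start sites are shown for the 3 members whose values did not overlap between the groups. Each runs 250 bases up to the base before the annotated start, 5′ to 3′ on the gene's strand, from RefSeq on build GRCm38.p6. The regions are chr8:109990186-109990435 on the plus strand for Tat, chr5:123182724-123182973 on the minus strand for Hpd and chr16:37579903-37580152 on the plus strand for Hgd. Capitals mark matches on either strand to any of 5 motifs.
Tat: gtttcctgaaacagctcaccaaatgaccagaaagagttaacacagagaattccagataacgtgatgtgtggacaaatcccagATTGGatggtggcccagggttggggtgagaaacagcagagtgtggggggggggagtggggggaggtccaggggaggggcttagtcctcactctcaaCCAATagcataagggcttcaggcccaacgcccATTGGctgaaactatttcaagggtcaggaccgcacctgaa
Hpd: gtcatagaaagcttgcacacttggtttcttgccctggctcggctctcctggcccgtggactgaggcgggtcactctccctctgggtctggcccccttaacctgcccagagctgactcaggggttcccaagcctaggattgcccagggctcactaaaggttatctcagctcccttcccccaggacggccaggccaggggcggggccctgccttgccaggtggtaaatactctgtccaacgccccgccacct
Hgd: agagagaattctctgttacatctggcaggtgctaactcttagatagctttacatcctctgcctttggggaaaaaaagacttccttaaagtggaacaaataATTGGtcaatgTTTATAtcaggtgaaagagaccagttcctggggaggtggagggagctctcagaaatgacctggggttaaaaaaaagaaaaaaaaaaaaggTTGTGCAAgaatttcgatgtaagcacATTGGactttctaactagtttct

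The 5 motifs described here are the glucocorticoid receptor half-site TGTTCT, the C/EBP motif TTGCNNAA, the cyclic AMP response element TGACGTCA, the TATA motif TATAAA and the CCAAT box CCAAT. They were found in 16.1%, 9.56%, 1.55%, 12.4% and 33.8%, respectively, of 32851 windows of the same length upstream of annotated genes. The Tat window held 3 CCAAT matches, spread over both strands, and the other 4 motifs had none. Hpd had no match to any of the 5. The Hgd window held 1 C/EBP match, 1 TATA match and 2 CCAAT matches, all on the opposite strand. Of these 5 motifs, among measured members not printed, Pcbd1 had 1 TATA match and Qdpr 1 C/EBP match and 2 CCAAT matches. These too lay on the opposite strand, and Fah had no match to the 5. These are letter matches in a short window, and no marked base overlapped another motif. No motif of the 5 was matched in all 3 windows printed.

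All arrays came from liver RNA, and 11 of the 12 measured hepatocyte markers had a mean above 5. Most of the array lay lower than that: 792 of the 18820 genes, and 5.55% of all probe sets, had a mean above 5. Of 69 measured markers of Kupffer cells, endothelium, stellate cells, cholangiocytes, blood cells, kidney, exocrine pancreas and fat, 1 had a mean above 5, and 1 had an unadjusted p under 0.05 by limma. Their differences ran from -0.047 to 0.066. In bulk liver, fewer cells of a type and less RNA per cell cannot be told apart. Pcyt2 itself, which encodes the rate-limiting enzyme of phosphatidylethanolamine synthesis from ethanolamine, had values of 4.60 to 4.67 in the heterozygotes and of 4.796 and 4.89 in wild type livers (difference -0.20, adjusted p = 0.264). Its signal was thus lower in each Pcyt2+/- liver, within the low band of the array. The Pcyt2+/- array of mouse 3 (replicate 3) was low over bright genes, and it held the lowest of the 4 Pcyt2+/- values for 52.8% of the 792 genes with a mean above 5. The median of the 163 genes with a mean above 7 lay at -0.12 on that array relative to the wild type mean, and between -0.053 and 0.025 on the 3 other Pcyt2+/- arrays. Results that turn on this array are given with and without it.

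Tat stood apart from the other members. Its log2 values were 7.34, 7.25, 7.61 and 7.04 in Pcyt2+/- replicates 1 to 4 and 8.58 and 8.30 in wild type replicates 3 and 4. Each Pcyt2+/- liver was thus below both wild type livers, and the gap between the nearest arrays was wider than the spread within either group. The means were 7.31 ± 0.23 (SD, n = 4) and 8.44 ± 0.20 (SD, n = 2). The difference was -1.13 (SE 0.15, 95% interval -1.48 to -0.77), which puts the wild type signal 2.19-fold above that of Pcyt2+/-. It was the 3rd lowest difference and the 12th smallest p among the 18820 genes, and it did not pass the test over all genes (adjusted p = 0.219). The rank of its p depended on the fit. It was 77 without moderation of the variance, 31 without Pcyt2+/- replicate 1 and 4 without Pcyt2+/- replicate 3. No gene passed an adjusted p under 0.05 by limma (0 of 18820, or 0%). Without adjustment, 648 genes were lower in Pcyt2+/- with p under 0.05, and 350 were higher. With a trended and robust variance prior 9 genes were called (0.0478%), and Tat was among them (adjusted p = 0.0418). Each of the 6 members was also tested by exact permutation, two-sided, with 15 ways to divide the arrays. The exact p of Tat was 0.0667, the smallest that 4 against 2 arrays allow, so this test cannot reach 0.05. The exact permutation p was 0.2 for Hpd and for Hgd, 0.733 for Fah, 0.8 for Qdpr and 0.933 for Pcbd1. With each array left out in turn the difference of Tat stayed between -1.27 and -0.99.

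**Figure D1:**
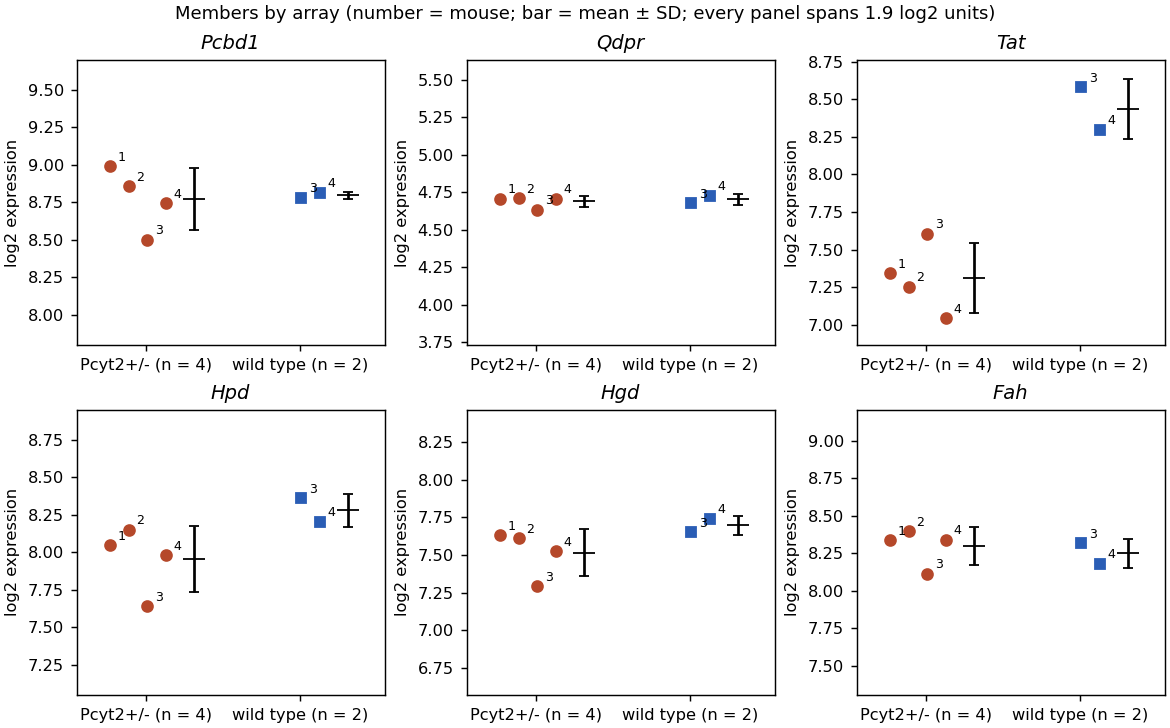
Log2 expression of the 6 measured members by array. Circles are the 4 Pcyt2+/- mice, squares the 2 wild type mice, numbers are the mice, and the bars give the mean ± SD of each group. Tat runs from 7.04 to 7.61 in Pcyt2+/- and is at 8.30 and 8.58 in wild type, while the groups of Pcbd1, Qdpr and Fah overlap.

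Hpd and Hgd, which come next after Tat, had lower means in Pcyt2+/- by far smaller amounts. Hpd, the dioxygenase that makes homogentisate, had values of 8.05, 8.15, 7.64 and 7.98 in Pcyt2+/- replicates 1 to 4 against 8.36 and 8.20 in wild type. The groups did not overlap, though Pcyt2+/- replicate 2 and wild type replicate 4 were close to each other. The difference of Hpd was -0.33 (SE 0.13, 95% interval -0.64 to -0.011, adjusted p = 0.931), and it was -0.22 without Pcyt2+/- replicate 3. That interval uses a variance that limma moderates over all genes. Without moderation the SE of Hpd was 0.17, with an unadjusted p of 0.132 by the ordinary t-statistic. Hgd, which opens the ring of homogentisate, had 7.63, 7.61, 7.29 and 7.53 against 7.65 and 7.74. Here the highest Pcyt2+/- value came within the distance between both wild type arrays of the lower wild type value. The difference of Hgd was -0.18 (SE 0.092, 95% interval -0.40 to 0.039, adjusted p = 0.945). Without Pcyt2+/- replicate 3 it was -0.11, and after quantile normalization of the deposited values it was -0.050.

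Fah, the last enzyme, had a slightly higher mean in Pcyt2+/-. Its values were 8.34, 8.40, 8.12 and 8.34 in Pcyt2+/- and 8.32 and 8.18 in wild type, and the groups overlapped. The difference was 0.048 (SE 0.079, 95% interval -0.14 to 0.24, adjusted p = 0.995). It was -0.020 without wild type replicate 4, so its sign rests on single arrays. The interval of Fah does not reach the size of the Tat difference in either direction.

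The enzymes that restore tetrahydrobiopterin showed no separation of the groups. Pcbd1, the dehydratase, had 8.99, 8.86, 8.502 and 8.74 in Pcyt2+/- against 8.78 and 8.81 in wild type. The Pcyt2+/- livers lay on both sides of the wild type pair. The difference of Pcbd1 was -0.024 (SE 0.12, 95% interval -0.31 to 0.26, adjusted p = 0.997). Its sign turned without Pcyt2+/- replicate 3 (0.066) and after quantile normalization (0.062). Qdpr, the dihydropteridine reductase, had 4.71, 4.71, 4.63 and 4.71 against 4.68 and 4.73. These values lie in the low band of the array, where a change in transcript gives a compressed change in signal. The difference of Qdpr was -0.012 (SE 0.026, 95% interval -0.075 to 0.050, adjusted p = 0.996), and it was 0.0063 without Pcyt2+/- replicate 3 and 0.012 without wild type replicate 4.

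**Figure D2:**
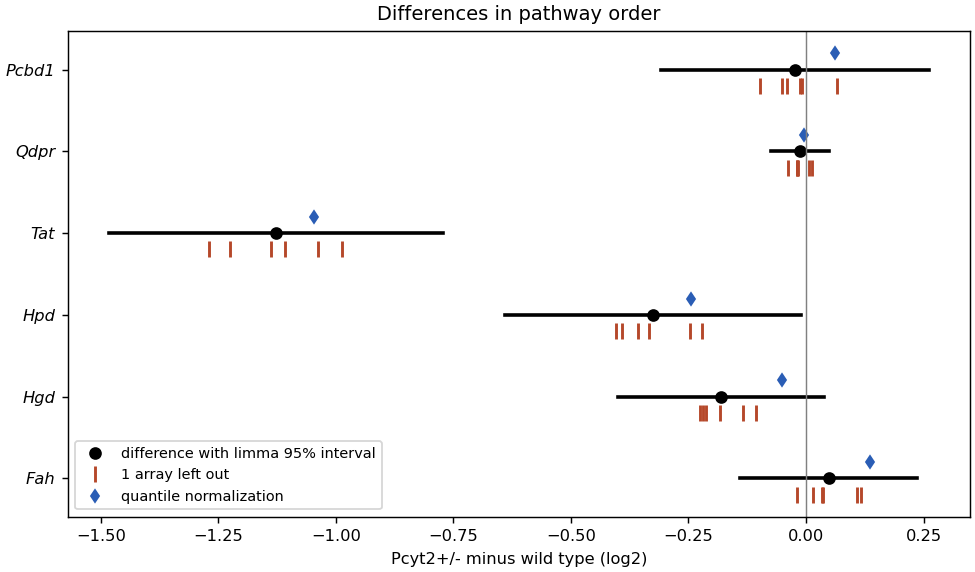
Differences in log2 expression between Pcyt2+/- and wild type in pathway order. Black points and lines give the difference with its 95% interval, ticks give the difference with each of the 6 arrays left out, and diamonds give it after quantile normalization. The interval of Tat runs from -1.48 to -0.77 and that of Hpd from -0.64 to -0.011, while the others span 0.

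Along the pathway, 5 of the 6 measured members had a lower mean in Pcyt2+/-, against 51.7% of all genes tested and 62.2% of genes with a mean above 5. Without Pcyt2+/- replicate 3 the count was 3 of 6, and with the arrays quantile normalized it was 4. At an unadjusted p under 0.05, 2 members (Tat and Hpd) were lower and 0 were higher by limma. Without Pcyt2+/- replicate 3, 4 members had such a p: Tat, Hpd and Hgd with a lower mean and Fah with a higher one (0.11). The count was 1 (Tat) without Pcyt2+/- replicate 1, without Pcyt2+/- replicate 4, or without either wild type array. The background for lower genes was 3.44% over all genes and 14.6% among those with a mean above 5, and that for higher genes was 1.86%. The groups did not overlap, with Pcyt2+/- lower, for 3 members (Tat, Hpd and Hgd), against 7.17% of all genes. These 3 had means above 5, and of the 792 genes with such a mean 121 were lower and 44 higher without overlap. Of the members, 0 were higher without overlap, against 5.67% of all genes. Without Pcyt2+/- replicate 3 the same 3 members were lower without overlap, against 10.8% of all genes, and 1 member (Fah) was higher without overlap, against 8.70%. The median difference was -0.10 over the 6 members, -0.18 over the 5 with a mean above 5, -0.00073 over all genes and -0.020 over all genes with a mean above 5. The member median was -0.050 without Pcyt2+/- replicate 3 and -0.028 after quantile normalization. The members were taken up with earlier results of these data known, so these counts describe the set.

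The arrays did not order the members alike. Among the Pcyt2+/- arrays, replicate 3 had the lowest value for 5 members (Pcbd1, Qdpr, Hpd, Hgd and Fah) and the highest for Tat. In that liver Tat was at -0.83 relative to the wild type mean and Hpd at -0.64, which was the smallest distance between these genes on any Pcyt2+/- array. In replicate 4 Tat was at -1.396 and Hpd at -0.30. Within each array, Tat minus Hpd, set against the wild type mean of the same quantity, was -0.86, -1.06, -0.19 and -1.09 in Pcyt2+/- replicates 1 to 4 and 0.063 and -0.063 in wild type. Tat was thus lower relative to Hpd on each Pcyt2+/- array than on either wild type array. The same held relative to Fah, with -0.70 to -1.49 in Pcyt2+/- and 0.073 and -0.073 in wild type. A ratio within an array shows unequal change and does not show which gene changed.

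The side routes of the pathway gave 1 gene with a difference above 0.5 in size. Of 15 listed genes 12 were measured. At an unadjusted p under 0.05, 2 were lower (Got1 and Ddt), 1 was higher (Got2) and 9 did not pass, with 0 called over all genes and a median difference of 0.0065. For this list and those below, the share of all genes with such a p was 3.44% lower and 1.86% higher. Among the 792 genes with a mean above 5 it was 14.6% lower, and 44 genes were higher. Got1, the cytosolic aspartate aminotransferase, which can also transaminate aromatic amino acids, had 4.92, 4.96, 4.82 and 4.70 in Pcyt2+/- against 5.28 and 5.76 in wild type. The groups of Got1 did not overlap, and the wild type arrays differed from each other by more than the Pcyt2+/- arrays did. Its difference was -0.67 with an SE of 0.13 (adjusted p = 0.511), and -0.43 without wild type replicate 4. Got2, the mitochondrial aminotransferase, had 8.36 to 8.42 in Pcyt2+/- and 8.34 and 8.35 in wild type, a difference of 0.044 (adjusted p = 0.913). With the mean of its probe sets in place of the brightest, Got2 differed by 0.0044 (unadjusted p = 0.785 by limma). Ddt, the D-dopachrome tautomerase, had a difference of -0.20 (adjusted p = 0.817). Th, the tyrosine hydroxylase of catecholamine synthesis, was dim, with 4.46 to 4.47 in Pcyt2+/- against 4.48 and 4.51 in wild type.

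Genes of tetrahydrobiopterin supply showed no gene at an unadjusted p under 0.05 in either direction by limma, and 0 were called over all genes, for 6 measured of 7 listed (median difference -0.0057). Gch1, the GTP cyclohydrolase that starts the synthesis, had 4.25 to 4.29 in Pcyt2+/- and 4.28 and 4.33 in wild type (-0.033, adjusted p = 0.949), in the low band of the array. Akr1c6, an aldo-keto reductase, had 7.45, 7.72, 7.58 and 6.93 against 7.07 and 7.12. The groups of Akr1c6 overlapped through Pcyt2+/- replicate 4, and its difference of 0.32 (adjusted p = 0.955) was 0.49 without that array. Gchfr, the feedback regulator of the cyclohydrolase, differed by 0.025 and Pcbd2, the paralog of Pcbd1, by -0.016.

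Among amino acid transporters, 9 of 9 were measured. Slc38a4, a sodium-coupled carrier of small neutral amino acids, was the 1 gene lower and Slc6a19, a neutral amino acid carrier, the 1 gene higher at an unadjusted p under 0.05. The other 7 did not pass, 0 were called over all genes, and the median difference was -0.015. Slc38a4 had 7.34, 7.30, 7.01 and 7.35 against 7.58 and 7.64, a difference of -0.36 with an SE of 0.095 (adjusted p = 0.688). Each Pcyt2+/- value of Slc38a4 was below both wild type values, with replicate 3 the lowest. Slc6a19 was dim, with 4.29 to 4.32 against 4.27 on both wild type arrays, a difference of 0.035. Slc16a10, the transporter of aromatic amino acids, had 4.43 to 4.45 against 4.42 and 4.50 (-0.015, adjusted p = 0.988), and its sign turned without wild type replicate 4 (0.024). Slc7a8, a light chain of the large neutral amino acid exchangers, differed by 0.023 and Slc3a2, their heavy chain, by -0.027.

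Genes that use or also make the end products, fumarate and acetoacetate, were measured for 9 of 9 listed, of which 3, all lower in Pcyt2+/-, had an unadjusted p under 0.05. The remaining 6 did not pass, 0 were called over all genes, and the median difference was -0.073. Acat1, the mitochondrial acetoacetyl-CoA thiolase, had 6.003, 6.04, 5.86 and 6.07 against 6.16 and 6.24, without overlap, a difference of -0.21 with an SE of 0.058 (adjusted p = 0.759). Asl, which makes fumarate in the urea cycle, differed by -0.15 (-0.10 without wild type replicate 4). Fh1, the fumarate hydratase, differed by -0.10 (-0.059 without wild type replicate 4), with groups that overlapped. Bdh1, the hydroxybutyrate dehydrogenase, differed by -0.083 (adjusted p = 0.945).

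Transcription factors, receptors and other regulators listed for this pathway were measured for 16 of 18 genes. At an unadjusted p under 0.05, 3 were lower, 1 was higher and 12 did not pass, with 0 called over all genes and a median difference of -0.013. The 3 lower genes were Klf15, a factor of amino acid breakdown, Ppargc1a, a coactivator of the fasted liver, and Cebpa, a C/EBP factor of the hepatocyte. Klf15 had 4.86 to 4.89 against 4.92 and 4.97, a difference of -0.077 (-0.049 without wild type replicate 4; adjusted p = 0.646). Cebpa had 4.90 to 5.01 against 5.01 and 5.06, a difference of -0.082 (adjusted p = 0.897). Ppargc1a had 4.32 to 4.33 against 4.35 and 4.36 (-0.033), and the 1 higher gene, Foxo1, a factor restrained by insulin, differed by 0.034. With the mean of its probe sets in place of the brightest, Ppargc1a differed by -0.011 (unadjusted p = 0.316 by limma). Nr3c1, the glucocorticoid receptor, had 4.35 to 4.41 against 4.38 and 4.38, a difference of -0.0085 with a 95% interval of -0.047 to 0.030 (adjusted p = 0.995). Cebpb, another C/EBP factor, had 4.75 to 4.76 against 4.75 and 4.78, a difference of -0.011 (0 without wild type replicate 4). Hnf4a, Gcgr and Hsd11b1 were the 3 of the list with a mean above 5. Hnf4a had 7.27 to 7.49 against 7.32 and 7.90 (-0.25, adjusted p = 0.952), with groups that overlapped. Gcgr differed by -0.066 and Hsd11b1 by -0.025. The other genes lay in the low band, so small differences in signal were measured there.

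Other genes that glucocorticoids or fasting raise in the liver were measured for 15 of 15. At an unadjusted p under 0.05, 3 were lower (Mt2, Angptl4 and Tdo2), 0 were higher and 12 did not pass, with 0 called over all genes and a median difference of -0.034. Mt2, a metallothionein, had 5.16, 6.07, 5.30 and 5.27 in Pcyt2+/- against 6.62 and 6.42 in wild type, a difference of -1.07 with an SE of 0.25 (adjusted p = 0.607). The Pcyt2+/- values of Mt2 lay below both wild type values, with replicate 2 nearest to them, whereas the Pcyt2+/- array nearest to wild type for Tat was replicate 3. Without replicate 2, the Pcyt2+/- array nearest to wild type, the difference of Mt2 was -1.27 and passed (adjusted p = 0.0167). Without Pcyt2+/- replicate 1, 3 or 4 it did not pass (adjusted p = 0.770, 0.742 and 0.985, respectively). Tdo2, which opens tryptophan breakdown, had 7.07, 6.84, 6.81 and 7.03 against 7.08 and 7.86. Wild type replicate 3 was level with the highest Pcyt2+/- array for Tdo2, and the difference of -0.53 was -0.14 without wild type replicate 4. Angptl4, an inhibitor of lipoprotein lipase, differed by -0.12 (-0.071 without wild type replicate 4), and Sgk1, a kinase, by -0.031. Pck1 had 6.97, 7.48, 8.22 and 7.84 against 8.29 and 8.40, a difference of -0.72 with an SE of 0.31 (adjusted p = 0.936). Of the 15 genes, 6 were lower and 0 higher without overlap, beside 7.17% and 5.67% of all genes.

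Tryptophan breakdown, the other aromatic pathway, was measured for 10 of 11 listed genes. At an unadjusted p under 0.05, 3 were lower (Kmo, Kyat3 and Tdo2), 0 were higher and 7 did not pass, with 0 called over all genes. Its median difference was 0.0013, with 4 of 10 means lower in Pcyt2+/-, beside 5 of 6 for the phenylalanine and tyrosine genes. Whether these lists differ was not tested. Kmo, the kynurenine monooxygenase, had 4.91, 5.14, 4.804 and 5.10 against 5.33 and 5.54, without overlap, a difference of -0.45 with an SE of 0.10 (adjusted p = 0.607). Kyat3, a kynurenine aminotransferase, differed by -0.069 (-0.026 without wild type replicate 4) and Ido2, a tryptophan dioxygenase, by -0.011.

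Enzymes that open or carry the breakdown of other amino acids were measured for 22 of 25 listed genes. Of these, 11 had a mean above 5. A lower mean in Pcyt2+/- was found for 21, beside 51.7% of all genes and 62.2% of those with a mean above 5. For 13 genes, all lower, the unadjusted p was under 0.05, beside 3.44% of all genes and 14.6% of those with a mean above 5. The other 9 did not pass, 0 were called over all genes, and the median difference was -0.13, beside -0.10 for the 6 phenylalanine and tyrosine genes. The low values of Tat were thus found beside low values in other amino acid pathways, and whether the lists differ was not tested. Mat1a, which makes S-adenosylmethionine from methionine, had 9.68, 9.5, 9.19 and 9.12 against 10.26 and 10.11, a difference of -0.81 with an SE of 0.16 (adjusted p = 0.511). Ahcy, the hydrolase that follows methyl transfer, had 7.38, 7.18, 7.07 and 6.96 against 7.62 and 7.89, a difference of -0.61 with an SE of 0.12 (adjusted p = 0.511). For both genes each Pcyt2+/- value was below both wild type values. Got1 and Arg1 were the other members of this list among its 4 smallest p.

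**Figure D3:**
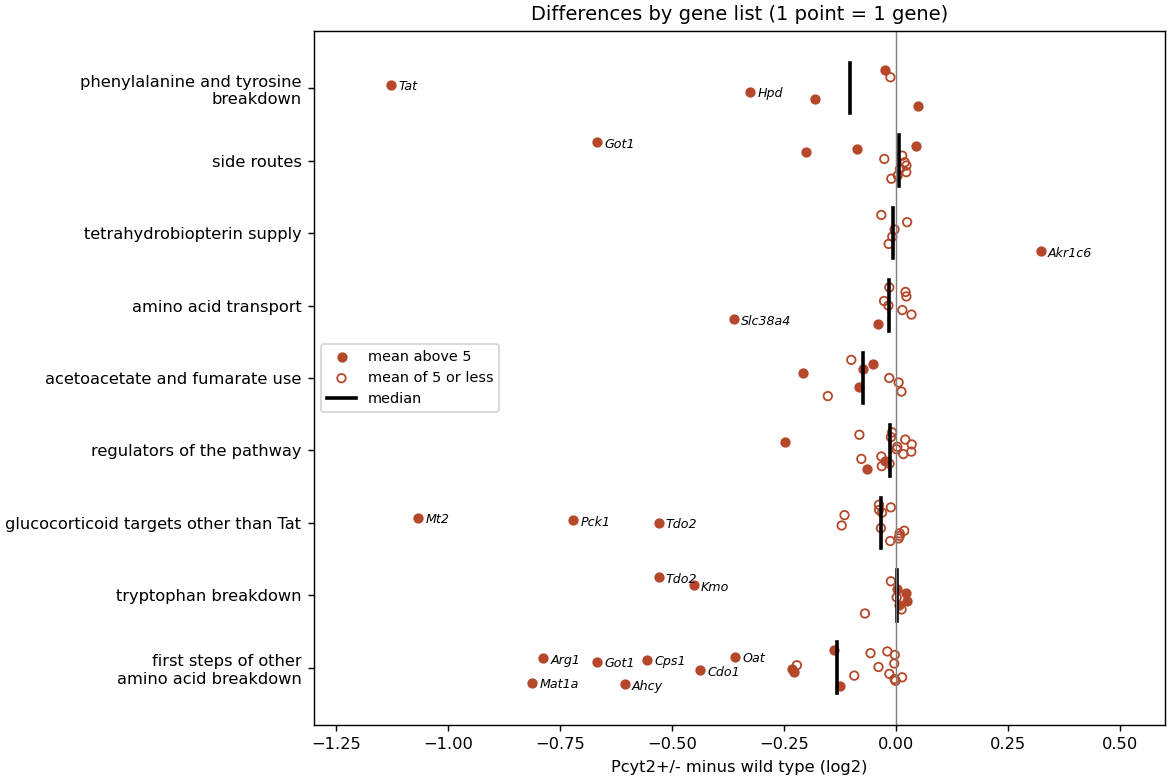
Differences in log2 expression for the measured genes of 9 lists, 1 point per gene, with the list median as a vertical bar. Filled points have a mean above 5 and open points lie in the low band. Tat (-1.13), Mt2 (-1.07), Mat1a (-0.81), Arg1 (-0.79), Pck1 (-0.72) and Got1 (-0.67) are among the genes far below their list medians. These medians run from -0.13 to 0.0065 over the lists shown.

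The genes closest to Tat and Hpd in their profile were found by the root mean square distance over the 6 arrays, after each gene was centred on its own mean, among 791 other genes with a mean above 5. Closest to Tat were Cyp4a31, a fatty acid hydroxylase (distance 0.24), Cyp2c39, a cytochrome P450 (0.27), and Arg1, the arginase of the urea cycle (0.28). Cyp4a31 had 8.98, 9.41, 9.08 and 9.04 against 10.26 and 10.29, a difference of -1.15 (adjusted p = 0.130). Cyp4a31 passed without Pcyt2+/- replicate 2, its Pcyt2+/- array nearest to wild type (-1.24, adjusted p = 0.00035). It also passed with the replicate block (-1.21, adjusted p = 0.041), and no gene passed without Pcyt2+/- replicate 4. Arg1 had 5.33, 5.38, 5.34 and 5.27 against 5.96 and 6.28, a difference of -0.79 (adjusted p = 0.130). The difference of Arg1 was -0.95 without wild type replicate 3, the wild type array nearer to Pcyt2+/-, and -0.63 without wild type replicate 4. Cyp4a31 and Arg1 both passed with the trended and robust prior and with the filter on dim genes. They also passed with each array's median signal subtracted and with the arrays centred on bright genes. The last 3 settings adjusted over fewer genes: 792 with the filter and with the centring, and 4062 with the median signal subtracted. Cyp2c39 differed by -0.62 (adjusted p = 0.511). For these 3 genes, as for Tat, each Pcyt2+/- array was below both wild type arrays. Closest to Hpd were Hadh, a mitochondrial hydroxyacyl-CoA dehydrogenase (distance 0.055), Fxyd1, a regulator of the sodium pump (0.069), and Slc38a4 (0.099). Hadh had 6.49, 6.47, 5.95 and 6.36 against 6.80 and 6.62, a difference of -0.39 (adjusted p = 0.913). Fxyd1 had 6.07, 6.10, 5.64 and 6.11 against 6.40 and 6.12, a difference of -0.28 (-0.14 without wild type replicate 3). In these 3, as in Hpd, the lowest array was Pcyt2+/- replicate 3. Likeness over 6 arrays is a description that rests on the group difference and on single arrays.

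**Figure D4:**
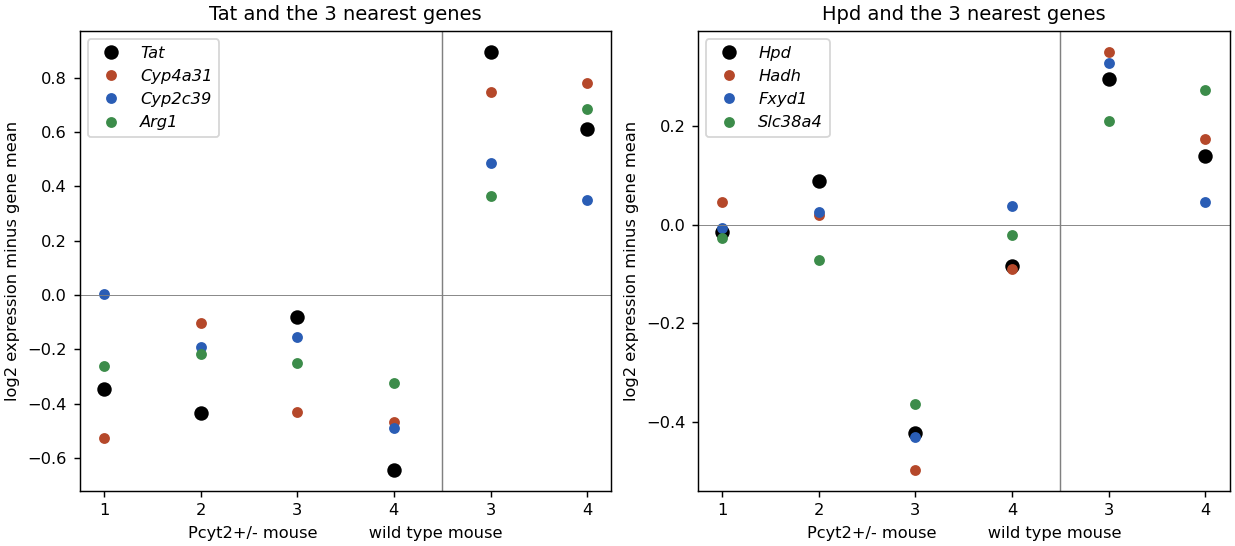
Log2 expression minus each gene's mean over the 6 arrays, for Tat and Hpd (black) and the 3 genes nearest to each, by mouse. The nearest distances are 0.24 for Tat (Cyp4a31) and 0.055 for Hpd (Hadh), and Pcyt2+/- replicate 3 is the lowest array in the panel of Hpd but not in that of Tat.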

How the data were processed

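Liver RNA of 6 mice was measured on 1 Affymetrix array per mouse. The authors deposited 1 log2 value per probe set and array. RMA is the tool named in the submitters' processing notes, and its version and any build are not given in the sources used here. In all, the table held 28996 probe sets without missing values. The platform annotation gave 1 symbol for 21218 of them, several for 1881, and 5897 stay unnamed here. The highest mean row stood for each of 18820 genes. Arrays have no sequencing depth, and their number limits the precision. The limma p-values rest on the spread between these mice, with each gene's variance drawn toward that of all genes tested.

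Groups were compared on all 6 arrays by limma 3.58.1 under R 4.3.3, using lmFit and default eBayes (two-sided, no covariates, Benjamini-Hochberg over all genes). The fit was tested on simulated data. Lists were described by counts and medians, without a set test. The members, lists and alternatives were chosen with earlier results of these data known. Named genes were mainly the members, up to 4 genes of smallest p per list, and a fixed set. Promoter letters came from RefSeq. Probe sets with several symbols were left out. Alternatives covered filters, the mean of a gene's probe sets, normalization, the prior, array weights, a replicate block and each array left out. Some items, among them 1 promoter motif that was searched, are not reported here.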

Additional observations from a re-analysis of the deposited data

Results flagged for a closer look

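In 5 of 44 genes tested, 1 of the 4 Pcyt2+/- arrays stood far from the others by Dixon's ratio of the gap to the range. Chance gives about 1 in 20 for independent groups, which does not apply as such here, since the genes share the same arrays and some were chosen for their likeness to Hpd or Tat. Pcyt2+/- replicate 3 was the lowest for Qdpr (4.634, with the next at 4.707), Slc38a4 (7.009, next 7.299) and Fxyd1 (5.645, next 6.067). Pcyt2+/- replicate 4 was the highest for Klf15 (4.892, next 4.862), and Pcyt2+/- replicate 2 the highest for Mt2 (6.073, next 5.297). Replicate 3 was also low over the bright genes of the array, and the part of that in these values was not tested.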

How the results depend on the processing

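The difference of Tat kept its direction under every setting run, from -1.27 to -0.99 with 1 array left out, and -1.245 with each array's median signal subtracted. Its adjusted p was 0.0418 with a trended and robust prior (difference -1.13, 1 member called), and from 0.0699 to 0.964 under the other settings. The value of 0.0699 came with the median signal subtracted, where adjustment ran over 4062 genes. With the filter on dim genes it ran over 792. The replicate block, on the numbers 3 and 4 that both groups share, rests on 4 arrays. It gave -1.11 for Tat (adjusted p = 0.261), -0.17 for Pcbd1 (unadjusted p = 0.049, adjusted p = 0.914), -0.021 for Fah, 0.0024 for Nr3c1, 6 lower members and a member median of -0.23. The labels do not say that a number marks a shared litter or day. Quantile normalization gave 0.062 for Pcbd1, 0.0024 for Ido2 and 0.00098 for Cebpb, and 4 lower members. Centring on genes with a mean above 7, chosen after seeing the data and fitted over the 792 genes with a mean above 5, gave 0.0070 for Pcbd1 and 3 lower members of 5. With 1 array left out, the lower members numbered from 3 to 5. The ranges were -0.097 to 0.066 for Pcbd1, -0.037 to 0.012 for Qdpr, -0.020 to 0.12 for Fah, -0.033 to 0.00073 for Pcbd2, -0.022 to 0.00081 for Ido2 and -0.053 to 0.024 for Slc16a10. Fits without 1 wild type array assume that the other varies like the Pcyt2+/- arrays. Members with an unadjusted p under 0.05 numbered 4 with the replicate block and 1 with array weights, the filter on dim genes, every row tested, the median signal subtracted or no moderation. Genes called numbered 0 as reported, 9 with the trended and robust prior, 3 with the filter on dim genes, with the median signal subtracted and with the centring, 2 with the replicate block, and 0 to 9 with 1 array left out. Hpd and Hgd kept a lower mean in all settings, and neither was called. The number of arrays and the low signal of Qdpr limit these comparisons.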
